A study of Mus musculus with 6 samples.

Results

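The NR4A orphan nuclear receptors are Nr4a1 (also called Nur77), Nr4a2 (Nurr1) and Nr4a3 (Nor1). They were taken by gene symbol from the deposited table, without regard to their values. All 3 were measured, each by 1 probe set, out of 22052 named genes on the array. The cells were MA-10, an established line from a mouse Leydig cell tumour. Total RNA was taken 48 h after transfection with small interfering RNA, directed at both MEF2A and MEF2D in 3 samples (siRNA MEF2) and scrambled in 3 (siRNA control). Each sample went on 1 one-colour Affymetrix whole-transcript array. All samples are of this 1 line, and the labels do not say whether the replicates were separate cultures, so the p-values reflect the variation among these 6 samples alone, and that variation could be technical.

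NR4A receptors are transcription factors with no known natural ligand that must bind for them to act, so their activity follows mainly from how much of them a cell makes. Their genes are immediate early genes, switched on quickly by cAMP, calcium and growth signals through cAMP response elements (CREs), which CREB binds. MEF2 factors also control Nr4a1, and in T cells and muscle they either activate it or, with class IIa histone deacetylases or Cabin1, hold it down. The receptors bind an element called the NBRE as monomers, and Nr4a1 and Nr4a2 can pair with retinoid X receptors. In Leydig cells luteinizing hormone raises Nr4a1 through cAMP, and Nr4a1 activates promoters of steroidogenic genes such as Star.

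The promoter windows of the 3 genes, from 250 bases before to 50 bases after the annotated start, are printed because they hold a feature that the 3 genes share, while of these genes Nr4a1 alone was called changed. Nr4a2 and Nr4a3 read near or below the negative controls, so the contrast does not show that they failed to respond. The sequences are those of RefSeq on the assembly GRCm38.p6, and all 3 genes matched 1 window by symbol. Capitals mark matches to the 5-base CRE core TGACG on either strand, to the 7-base CRE variant TGCGTCA on either strand, or to the MEF2 consensus.
Nr4a1, chr15:101266596-101266895, plus strand: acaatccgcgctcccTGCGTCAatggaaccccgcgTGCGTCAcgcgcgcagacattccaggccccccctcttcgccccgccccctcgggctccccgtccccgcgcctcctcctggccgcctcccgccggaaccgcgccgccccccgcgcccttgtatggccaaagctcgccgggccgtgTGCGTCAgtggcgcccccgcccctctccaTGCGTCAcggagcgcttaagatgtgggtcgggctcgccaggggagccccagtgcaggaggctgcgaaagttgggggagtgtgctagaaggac
Nr4a2, chr2:57123954-57124253, minus strand: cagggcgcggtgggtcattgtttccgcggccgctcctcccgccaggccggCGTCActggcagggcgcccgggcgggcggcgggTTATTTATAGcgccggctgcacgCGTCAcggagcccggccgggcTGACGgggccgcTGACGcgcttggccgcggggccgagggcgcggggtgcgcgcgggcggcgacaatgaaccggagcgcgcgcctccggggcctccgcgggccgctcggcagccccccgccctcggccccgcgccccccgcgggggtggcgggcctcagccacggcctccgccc
Nr4a3, chr4:48045055-48045354, plus strand: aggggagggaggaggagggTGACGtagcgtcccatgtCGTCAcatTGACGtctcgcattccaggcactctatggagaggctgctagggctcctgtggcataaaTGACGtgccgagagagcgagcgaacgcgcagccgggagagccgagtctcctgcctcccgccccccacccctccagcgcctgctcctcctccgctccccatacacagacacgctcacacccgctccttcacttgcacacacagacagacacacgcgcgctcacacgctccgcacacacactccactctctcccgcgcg

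Every one of the 3 windows held 4 matches to the CRE core TGACG. Among 32851 promoter windows 20.8% held at least 1 match and 76 windows (0.231%) held at least 4. In Nr4a1 each of the 4 cores lay inside the variant TGCGTCA, with the variants at -235 to -229, -215 to -209, -71 to -65 and -42 to -36 from the start. This variant was added to the search after the Nr4a1 window had been read. It occurred in 2.12% of all windows, and the Nr4a1 window was the only 1 of 32851 with 4 of them. Since the variant was taken from this same window, that count describes the window and carries no weight as a result. In Nr4a2 and Nr4a3 the cores lay between -200 and -107 and between -231 and -143, none of them in the variant. The whole 8-base CRE TGACGTCA, found in 1.79% of windows, was in none of the 3. The MEF2 consensus, found in 3.19% of windows, matched once, in Nr4a2 at -167 to -158, and overlapped no other searched motif. Sequence outside the windows was not searched, so the lack of a match in Nr4a1 does not cover MEF2 sites further upstream. The NBRE AAAGGTCA (1.51% of windows) and the serum response CArG box (1.63%) had no match in the 3 windows. A match is a description of these letters, not a bound site. The windows were rich in G and C, at 72.3% in Nr4a1, 81.7% in Nr4a2 and 64.7% in Nr4a3, against a median of 52.7% over all windows.

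**Figure D1:**
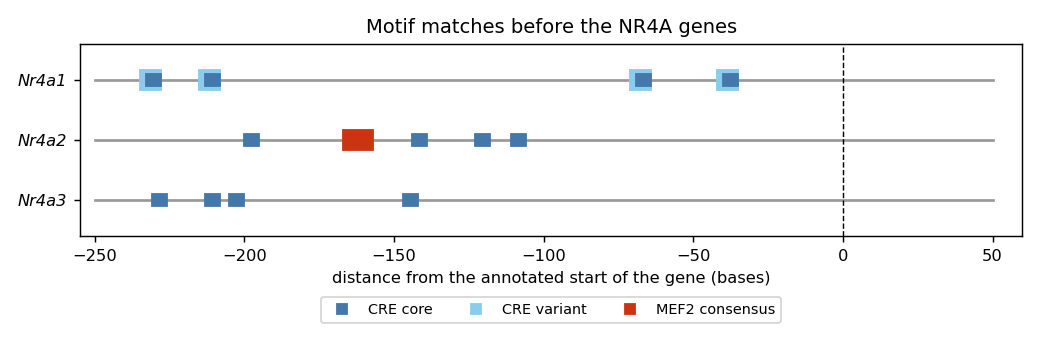
Positions of motif matches from 250 bases before to 50 after the annotated start (dashed line) of Nr4a1, Nr4a2 and Nr4a3, in bases; dark blue boxes are CRE cores, light blue boxes the longer CRE variant around a core, and the red box the MEF2 consensus. Within these windows each gene carries 4 cores, Nr4a1 alone of these 3 carries the variant (4 matches), and Nr4a2 alone the MEF2 consensus. The variant was added to the search after the Nr4a1 window had been read. Sequence outside the windows was not searched.

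Precision is limited by the number of arrays, since signals have no counting depth. Array medians were 7.82 to 7.88 on the log2 scale, and arrays correlated across genes, which are not independent replicates, at 0.9946 to 0.9986. The Leydig label was borne out by 6 of 7 measured Leydig markers, which read above the negative control median on all 6 arrays; Insl3 had no named probe set and is not analysed here. Of the markers of other cells, 1 of 5 for macrophages, 2 of 5 for Sertoli cells, 1 of 3 for myoid cells, 1 of 4 for endothelium and 2 of 4 for germ cells read above that median on all arrays. The mean of the macrophage markers was 6.51 to 6.62 in the controls and 6.51 to 6.60 in siRNA MEF2, and that of the Leydig markers 10.83 to 10.98 and 10.77 to 10.81. Single markers went both ways: the macrophage marker Cd68 fell by 0.54 (adjusted p = 0.000657) and Ptprc rose by 0.20 (adjusted p = 0.0434), the endothelial Cdh5 fell by 0.42 (adjusted p = 0.00106) and Tek rose by 0.21 (adjusted p = 0.0404), and the germ cell marker Ddx4 rose by 0.39 (adjusted p = 0.00784) and the Sertoli marker Wt1 by 0.21 (adjusted p = 0.0478). Ptprc and Tek read below the negative control median on every array, so their rises compare background-level readings. Wt1 read below it on siRNA MEF2 replicate 3. All samples are of 1 line, so a reading of another cell type's marker need not mean that such cells were present. The part of these levels in the results was not tested, and in bulk RNA fewer cells of a type and less RNA per cell cannot be told apart.

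No siRNA control sample reached the lowest siRNA MEF2 value of Nr4a1. Its log2 signal (probe set 10427035) was 9.69, 9.55 and 9.61 in siRNA control replicates 1 to 3, and 10.37, 10.05 and 10.12 in siRNA MEF2 replicates 1 to 3. The groups did not overlap, the highest value was that of siRNA MEF2 replicate 1, and the other two siRNA MEF2 samples lay close together. The means were 9.62 ± 0.07 and 10.18 ± 0.17 (SD, n = 3 each). Nr4a1 rose by 0.56 on the log2 scale (SE 0.08, 95% interval 0.38 to 0.73), a 1.47-fold rise, with a limma adjusted p of 0.000754. A gene is called here at an adjusted p under 0.05. Of the 3 NR4A genes 1 was called, against 20.7% of all genes, 9.02% higher and 11.7% lower. Non-overlap alone was common, at 40.8% of all genes (22.8% higher, 17.9% lower). Signal level moved with direction across the array: in the signal decile of Nr4a1, the eighth from the bottom, 4.63% of genes were called higher and 26.1% lower. The rise of Nr4a1 ranked 21 among 22052 genes, and 81 without siRNA MEF2 replicate 1, where it was 0.46.

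Nr4a2 (probe set 10482772) did not pass the test. It read 7.05, 6.96 and 6.98 in siRNA control replicates 1 to 3, and 7.18, 6.999 and 7.11 in siRNA MEF2 replicates 1 to 3. The groups overlapped, with siRNA MEF2 replicate 2 inside the control range. The difference was 0.10 on the log2 scale (SE 0.06, 95% interval -0.03 to 0.24, limma adjusted p = 0.248). In the signal decile of Nr4a2 15.2% of genes were called higher and 1.59% lower.

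Nr4a3 (probe set 10504838) did not pass either. It read 6.37, 6.36 and 6.32 in the controls, and 6.47, 6.48 and 6.19 in siRNA MEF2 replicates 1 to 3, so that the siRNA MEF2 samples lay on both sides of the control range. The difference was 0.028 (SE 0.08, 95% interval -0.14 to 0.19, limma adjusted p = 0.811), and its sign turned under 5 alternatives, among them every scaling tried. In the signal decile of Nr4a3 11.4% of genes were called higher and 1.22% lower.

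Signal over background set these readings apart. The negative control probe sets had medians of 7.28 to 7.35 on the control arrays and 7.16 to 7.53 on the siRNA MEF2 arrays. Nr4a1 lay above 91.4% to 96.6% of the 5222 negative controls. Nr4a2 lay above 40.9% to 50.5% and Nr4a3 above 25.1% to 36.4% of them, and both read below the negative control median on every array but 1, siRNA MEF2 replicate 1, where Nr4a2 read 7.18 against 7.16. The intervals given for these 2 genes therefore describe background-level readings and do not bound a change of their transcripts. No fold is stated for them. The negative control medians were 7.16, 7.40 and 7.53 on siRNA MEF2 replicates 1 to 3, lowest on the array where Nr4a1 was highest; their part in the result was not tested.

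**Figure D2:**
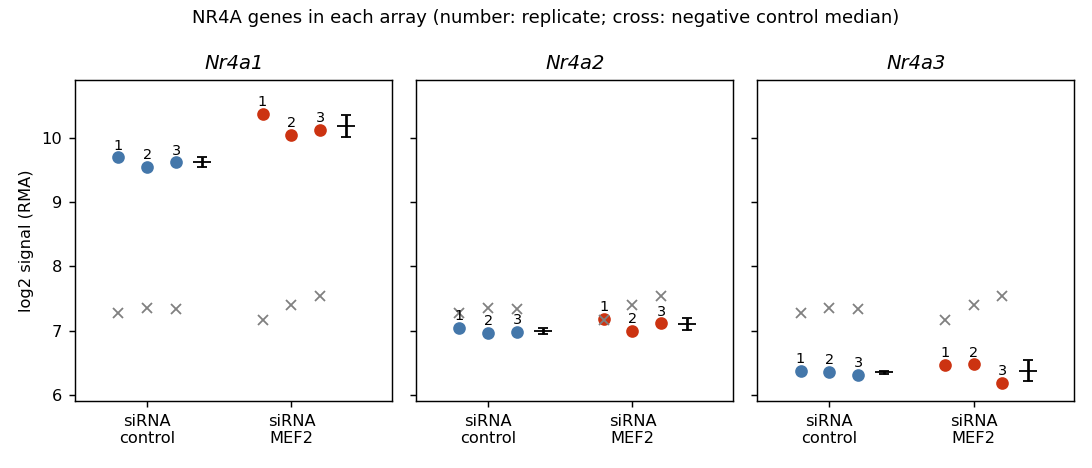
Log2 RMA signal of Nr4a1, Nr4a2 and Nr4a3 in each array (points, numbered by replicate), with the group mean ± SD of 3 arrays (black) and the median of that array's negative controls (grey crosses). The Nr4a1 points of siRNA MEF2 (10.05 to 10.37) lie above all control points (9.55 to 9.69), while Nr4a2 and Nr4a3 lie near or below the crosses with overlapping groups. Levels of different probe sets are not comparable.

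The 3 genes were set against each other array by array, as the log2 signal of a gene minus that of another in the same array. Nr4a1 minus Nr4a2 was 2.65, 2.59 and 2.64 in the controls and 3.19, 3.05 and 3.01 in siRNA MEF2, a rise of 0.46 with no overlap. Nr4a1 minus Nr4a3 rose by 0.53, also with no overlap, and Nr4a2 minus Nr4a3 by 0.08 with overlap. The two-sided exact permutation test gave p = 0.1 for each of the former, the smallest that 3 against 3 samples allow (0.15 after Benjamini-Hochberg adjustment over the 3 pairs), and p = 0.7 for the latter. This test cannot go below 0.1 here. Since Nr4a2 and Nr4a3 read near or below the negative controls, both contrasts with Nr4a1 largely restate its rise, and whether the genes responded differently was not settled.

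The targeted transcripts were lower in siRNA MEF2. Mef2a read 9.80, 10.12 and 10.10 in siRNA MEF2 replicates 1 to 3 and Mef2d read 10.60, 10.84 and 10.92, against at least 10.78 and 11.22 in the controls (limma adjusted p = 8.47e-05 and 0.00206). Nr4a1 was highest in siRNA MEF2 replicate 1, where both were lowest. With 3 arrays this was not tested. RNA levels do not show how much MEF2 protein was left.

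Of the genes that act upstream of Nr4a1, 13 were called and most did not pass. Of 32 measured inputs (MEF2 factors, their calcium-dependent regulators, CREB and its coactivators, cAMP kinase and the luteinizing hormone receptor) 10 fell, 3 rose and 19 did not pass (40.6% called, against 20.7% of all genes), with a median log2 difference of -0.0092 against 0.039 over all genes. The 10 that fell include Mef2a and Mef2d, the targets of the siRNA. Calls were more frequent above the median signal, and the list shares given here and below were not matched for signal. In the fit of genes above that median 11 of 27 inputs were called, against 3729 of 11026 genes. Ppp3cb, a catalytic subunit of calcineurin, read 10.09, 10.08 and 10.08 in the controls and 9.73, 9.74 and 9.63 in siRNA MEF2, and fell by 0.38 (SE 0.06, adjusted p = 0.000828). Calcineurin relays calcium signals to MEF2 and NFAT. Camk1, a calcium-dependent kinase gene, fell by 0.38 (SE 0.07, adjusted p = 0.00385), with groups that did not overlap. Creb1, which encodes the main CRE-binding activator, fell by 0.23 and Crem, a related CRE-binding factor gene, by 0.21, calls that were lost in 5 of 14 and in 3 of 13 alternatives. Crem read below the negative control median on every array, so its call compares background-level readings. The luteinizing hormone receptor gene Lhcgr rose by 0.45 (SE 0.08, adjusted p = 0.0039), and read 12.12, 12.01 and 12.19 in siRNA MEF2 against 11.82, 11.68 and 11.46 in the controls. Cabin1, a repressor of MEF2, rose by 0.18 (adjusted p = 0.0489), a call lost in 6 of 14 alternatives. Hdac7, the class IIa deacetylase linked to Nr4a1 in thymocytes, differed by 0.01 (adjusted p = 0.948), with a sign that turned after median centring. Of the other class IIa genes, Hdac5 fell by 0.20 (adjusted p = 0.0314) and Hdac9 rose by 0.23 (adjusted p = 0.0249). Hdac4 differed by -0.013 (adjusted p = 0.916), and Hdac9 read below the negative control median on every array. Leaving out siRNA MEF2 replicate 2 reduced the count to 8, siRNA control replicate 2 to 7 and siRNA control replicate 3 to 6. The list had 3 higher and 5 lower, with a median above 0, after cyclic loess or quantile normalization, and 1 higher and 11 lower after median centring.

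Among 20 partners and corepressors of NR4A receptors 4 fell, 2 rose and 14 did not pass (30.0% called, against 20.7% of all genes), with a median of -0.027 that turned positive after cyclic loess (0.016). Of these 20 genes 7, among them Nr0b2, Nr5a1 and Nr2f2, are counted again below among the other nuclear receptors. Jun is counted again among the immediate early genes, so the lists are not separate. Nr0b2, which encodes SHP, a receptor without a DNA-binding domain that represses NR4A activity, fell furthest. It read 9.26, 9.55 and 9.32 in the controls and 8.25, 8.13 and 8.52 in siRNA MEF2, a fall of 1.07 (SE 0.10, adjusted p = 5.04e-05), with no overlap. Nr0b1, which encodes the related corepressor DAX-1, differed by -0.11 (adjusted p = 0.198). The coactivator genes Ncoa1 and Ncoa3 both fell by 0.24 (adjusted p = 0.0099 and 0.015), but Ncoa1 lost its call after quantile normalization (adjusted p = 0.0682), and Ncoa3 after cyclic loess (0.06) and quantile normalization (0.107) and without siRNA MEF2 replicate 2 (0.0649) or siRNA control replicate 3 (0.0694). Jun, whose product cooperates with NR4A receptors on promoters, rose by 0.33 (SE 0.06, adjusted p = 0.00451), from 10.01, 9.995 and 9.95 to 10.43, 10.29 and 10.22. Its highest value, like that of Nr4a1, was in siRNA MEF2 replicate 1. The dimer partner genes Rxra, Rxrb and Rxrg differed by 0.01, 0.08 and -0.04 (adjusted p = 0.937, 0.344 and 0.619), the sign of Rxra turning under every scaling tried. Nr5a1, which encodes the steroidogenic factor SF-1, rose by 0.20 (adjusted p = 0.035), whereas Nr2f2, the gene of COUP-TFII, fell by 0.19 (adjusted p = 0.0345), calls lost in 6 and in 7 of 14 alternatives. For Gata4, a Leydig transcription factor gene, the difference was -0.18 (adjusted p = 0.0626), which passed under 5 of 14 alternatives. The list held 3 calls without siRNA control replicate 3. It held 2 higher and 1 lower after quantile normalization, 2 higher and 2 lower after cyclic loess, and 1 higher and 5 lower after median centring.

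Against the rest of the receptor superfamily Nr4a1 stood at the upper end. Of the 49 nuclear receptor genes measured, Nr4a1 had the largest rise, Nr4a2 ranked 14 and Nr4a3 ranked 26 from the top. Nr6a1, named because it came next, rose by 0.26 (SE 0.07, adjusted p = 0.0199). Nr4a1 kept rank 1 in each of the 14 alternatives, in which the next receptor differed by 0.21 to 0.34. These ranks describe the values, and the differences between receptors were not tested. Of the other 46 receptors 4 rose, 9 fell and 33 did not pass (28.3% called, against 20.7% of all genes), with a median of 0.026 that turned negative after median centring (-0.024). Nr2e1, among those that rose, read below the negative control median on every array, so its call compares background-level readings. Nr1h4, among those that fell, read below it on siRNA MEF2 replicates 2 and 3. Besides Nr0b2, Rora, the retinoid-related orphan receptor gene of the clock, fell by 0.50 (adjusted p = 0.000436), the thyroid hormone receptor gene Thrb by 0.45 (adjusted p = 0.00467) and the oestrogen receptor gene Esr1 by 0.35 (adjusted p = 0.00148). All 3 siRNA MEF2 samples lay below all controls for each of these. Without single arrays the count fell to between 7 and 8, in the absence of siRNA control replicate 1, 2 or 3 or siRNA MEF2 replicate 2, and the split was 0 higher and 10 lower after median centring.

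**Figure D3:**
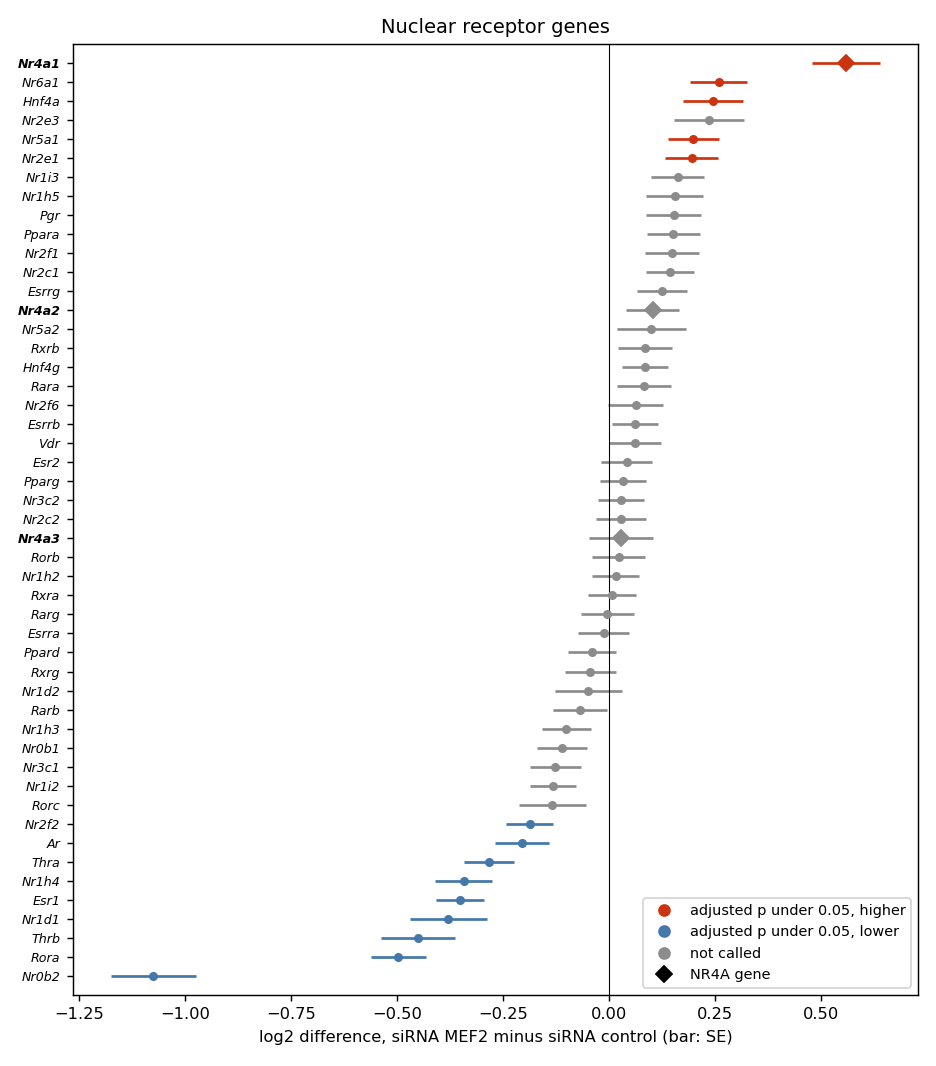
Log2 difference, siRNA MEF2 minus siRNA control, of the 49 measured nuclear receptor genes, with the moderated SE of limma as bars; diamonds are NR4A genes, red and blue points passed an adjusted p of 0.05 and grey points did not. Nr4a1 (0.56) lies apart at the upper end and Nr0b2 (-1.07) at the lower end, while Nr4a2 and Nr4a3 lie among the receptors that were not called.

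Genes known to carry NR4A elements or to respond to these receptors were called in both directions. Of 24 measured targets 6 fell, 1 rose and 17 did not pass (29.2% called, against 20.7% of all genes, 9.02% higher and 11.7% lower), with a median of 0.042 that turned negative after cyclic loess (-0.022). Star, which limits steroid synthesis by moving cholesterol into mitochondria, read 9.71, 9.60 and 9.54 in the controls and 8.96, 8.75 and 8.41 in siRNA MEF2. It fell by 0.91 (SE 0.11, adjusted p = 0.000285), and its highest siRNA MEF2 value was in replicate 1. Cyp17a1, the androgen-synthesis enzyme gene, was the target that rose, by 0.42 (SE 0.09, adjusted p = 0.00671). It read 11.51, 11.28 and 11.38 in siRNA MEF2 against 11.04, 11.10 and 10.77 in the controls, and its order over the siRNA MEF2 samples was that of Nr4a1. With 3 samples a shared order arises easily and was not tested. Hsd3b1, a steroid dehydrogenase gene, fell by 0.46 (adjusted p = 0.0235), a call lost in 3 of 13 alternatives. Akr1c18, a progesterone-degrading enzyme gene that Nr4a1 induces in the rodent ovary, fell by 0.72 (adjusted p = 0.00203) from a mean of 6.61 to 5.89. Both means of Akr1c18 lay below the negative control medians, so this call among the targets compares background-level readings. The osteopontin gene Spp1 fell by 0.70 (adjusted p = 8.11e-05) to 7.47, and the cell cycle factor gene E2f1 by 0.55 (adjusted p = 0.000513). Spp1 in siRNA MEF2 replicates 2 and 3, and Hsd3b1 in siRNA MEF2 replicates 1 and 3, also read below the negative control median of the array. Cyp11a1, the side-chain cleavage enzyme gene outside this list, differed by 0.04 (adjusted p = 0.66), with a sign that turned after median centring. Of the targets, 17 had a promoter window and 0 of these windows held the NBRE. Only the exact sequence AAAGGTCA was searched, and it was in 1.51% of all windows. The count of 0 over so few windows therefore does not show that these targets lack NR4A sites.

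The other immediate early genes split. Of 32 measured 5 rose, 6 fell and 21 did not pass (34.4% called, against 20.7% of all genes), with a median of 0.051. Of those that rose, Ier5 read below the negative control median on every array, and Ccn1 on every array but siRNA MEF2 replicate 1. Zfp36, among those that fell, read below it on every array but siRNA control replicate 2. The calls of Ier5, Ccn1 and Zfp36 therefore compare readings at or near background level. Egr1, a growth-response factor gene, read 7.83, 7.80 and 7.70 in the controls and 8.84, 8.10 and 8.07 in siRNA MEF2, so that replicate 1 stood apart from the other two. It rose by 0.56 (SE 0.16, adjusted p = 0.0261), but the call was lost in 6 of 14 alternatives (adjusted p = 0.0522 to 0.117), which were cyclic loess, quantile normalization, robust estimation and the absence of siRNA control replicate 1, 2 or 3. Without siRNA MEF2 replicate 1 the difference of Egr1 was 0.31 (adjusted p = 0.0083). Fos, the partner of Jun in AP-1, differed by 0.20 (adjusted p = 0.0728), with its highest value, 7.62, again in siRNA MEF2 replicate 1. Ier3, a stress-response gene, fell by 0.49 (SE 0.07, adjusted p = 0.000875), the TGF-beta-induced factor gene Klf10 by 0.43 (SE 0.07, adjusted p = 0.00193) and Myc by 0.33 (SE 0.06, adjusted p = 0.00322). For these 3 genes all siRNA MEF2 values lay below all control values. The list held 5 calls in the absence of siRNA control replicate 1, 6 in that of siRNA control replicate 2 or of siRNA MEF2 replicate 1 or 2, and 7 in that of siRNA control replicate 3. After cyclic loess or quantile normalization 1 was called higher and 5 lower, and after median centring 2 higher and 7 lower.

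**Figure D4:**
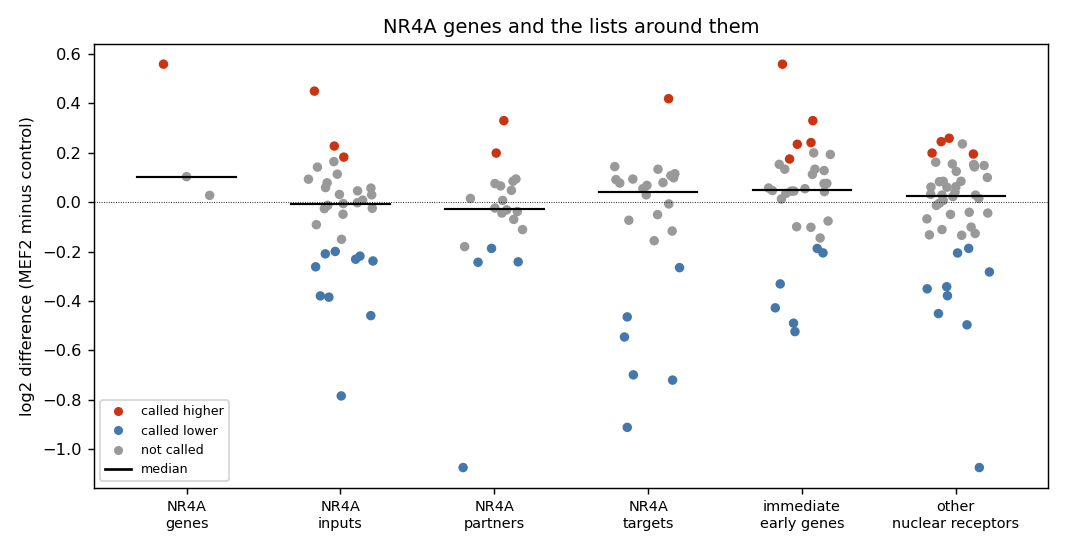
Log2 difference, siRNA MEF2 minus siRNA control, of each measured gene (points) of the NR4A family and of 5 lists, with the median as a black line; red and blue points passed an adjusted p of 0.05 and grey points did not. The lists sit around 0, with medians between -0.027 and 0.051, and their calls go both ways. Among the 24 targets 1 is red and 6 are blue. Jun and 7 nuclear receptor genes stand in more than 1 list.

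Genes next to the NR4A genes in the RefSeq annotation included ones that rose, fell or did not pass. Beside Nr4a1 on chromosome 15, Grasp, which encodes the scaffold tamalin, fell by 0.47 (SE 0.07, adjusted p = 0.00131). It read 9.54, 9.72 and 9.76 in the controls and 9.30, 9.08 and 9.23 in siRNA MEF2, without overlap and opposite to Nr4a1. On the other side the autophagy gene Atg101 differed by -0.04 (adjusted p = 0.71), a sign that turned after cyclic loess and quantile normalization. Beside Nr4a2 on chromosome 2, the glycerophosphate dehydrogenase gene Gpd2 fell by 0.45 (SE 0.07, adjusted p = 0.00126), or by 0.24 as the mean over its 2 probe sets (adjusted p = 0.0168), and the potassium channel gene Kcnj3 differed by 0.0036 (adjusted p = 0.975), with a sign that turned after median centring. Beside Nr4a3 on chromosome 4, the translocon gene Sec61b rose by 0.31 (SE 0.06, adjusted p = 0.00301) and the syntaxin gene Stx17 differed by -0.10 (adjusted p = 0.234). The value of Sec61b is that of the highest of its 3 probe sets. Neighbours were matched by symbol, and whether this probe set lies beside Nr4a3 was not checked.

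The genes most like each NR4A gene were those with the smallest root mean square difference between log2 profiles over the 6 arrays, each profile centred on its own mean. For Nr4a1 they were Akirin1, Adgrg1, Tmem33, Ctxn1 and Tcp11l2, at 0.062 to 0.082 (Pearson r 0.964 to 0.984). Akirin1, a nuclear protein gene, read 9.92, 9.77 and 9.74 in the controls and 10.45, 10.26 and 10.23 in siRNA MEF2, a rise of 0.50 (adjusted p = 0.000812). All 5 were called higher, between 0.42 and 0.51, and were highest in siRNA MEF2 replicate 1. For Nr4a2 they were Arhgef40, Ogfrl1, Syk, Pi16 and Tfcp2l1 (0.0074 to 0.014, r 0.988 to 0.996). For Nr4a3 they were Olfr128, Vmn2r90, Cfap58, Sall1 and Tmem114 (0.016 to 0.024, r 0.968 to 0.991). Olfr128, an odorant receptor gene, and Vmn2r90, a vomeronasal receptor gene, read below the negative control medians like Nr4a3. None of the genes most like Nr4a2 or Nr4a3 was called. Of the 5 genes of Nr4a1, 3 were named again after quantile normalization and 3 after cyclic loess. For Nr4a3 the numbers were 2 and 0. These likenesses over 6 arrays of 1 contrast are a description.

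The call of Nr4a1 held in all 14 alternatives, with differences from 0.46 to 0.65 and limma adjusted p from 1.64e-05 to 0.00502. Nr4a2 and Nr4a3 were not called in any of the 13 alternatives that kept them, with differences from 0.00077 to 0.15 and from -0.07 to 0.12.

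**Figure D5:**
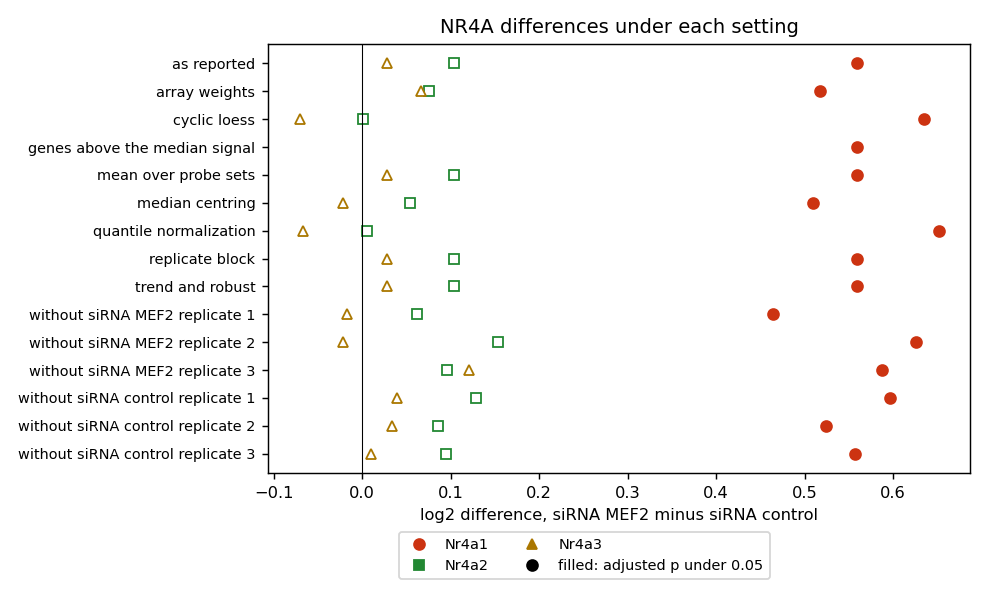
Log2 difference, siRNA MEF2 minus siRNA control, of Nr4a1 (circles), Nr4a2 (squares) and Nr4a3 (triangles) as reported and under each alternative; filled symbols passed an adjusted p of 0.05. Every Nr4a1 point is filled and lies at 0.46 or above, and every Nr4a2 and Nr4a3 point is open and lies between -0.07 and 0.15.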

How the data were processed

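The authors deposited log2 signal values, gene-level RMA signal per the file headers. RMA and Partek appear in the submitters' processing notes. Array design and annotation release were not given in the sources used here. The annotated table and the series matrix held the same values for 35557 probe sets on 6 arrays. Names came from deposited symbols and accessions through a RefSeq table of GRCm38.p6, used for names and neighbours, while transcript descriptions in the deposited annotation quote the older build NCBIM37, none of whose coordinates are printed. This named 25467 probe sets of 22052 genes. For the 1853 genes with several probe sets the one with the highest mean was used. The 2 groups were compared in limma 3.58.1 (lmFit, then eBayes; R 4.3.3) by a two-sided test with no covariate and no filter on low signal, and p-values were adjusted over 22052 genes by the Benjamini-Hochberg method. Run on simulated data of 22052 genes, it found 35 of 67 genes shifted by 0.3 (log2), 59 of 67 by 0.6 and 66 of 66 by 1. In the simulation only these genes were changed, all upward, whereas 20.7% of all genes were called in the data. The adjusted cutoff therefore differs, and these counts do not give the power of the reported fit. Members and lists were chosen with earlier results of these data known. Named were the members, Mef2a and Mef2d, up to 4 called members of each list by smallest p, a fixed set of Leydig, receptor and CREB genes, neighbours and the 5 most alike genes. The class IIa deacetylase genes, single cell type markers and some called genes near background level were also named. A fold is printed only where neither mean lies under 8, chosen once values were known.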

Additional observations from a re-analysis of the deposited data

How the results depend on the processing

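Alternatives were median centring, quantile normalization, cyclic loess, only genes above the median signal, the mean over probe sets, a variance trend with robust estimation, array weights, the replicate number as a block, and leaving out each array. The filter on signal left out Nr4a2 and Nr4a3. Nr4a3 reversed to -0.070 after cyclic loess, -0.066 after quantile normalization and -0.022 after median centring, and ranged from -0.021 to 0.12 without single arrays (negative without siRNA MEF2 replicate 1, -0.016, or 2, -0.021). Nr4a2 minus Nr4a3 ranged from -0.025 (without siRNA MEF2 replicate 3) to 0.17. Without single arrays the genes called ranged from 2475 to 4282 (4565 as reported; 2475 without siRNA MEF2 replicate 2, 2515 and 2640 without siRNA control replicates 2 and 3), inputs from 6 to 11, partners from 3 to 5, targets from 5 to 7, immediate early genes from 5 to 13 and other receptors from 7 to 10. The 1990 higher and 2575 lower calls were 832 and 3567 after median centring. The median of all genes, 0.039 as reported, was -0.011 after it. Cyclic loess and quantile normalization left 8 inputs and 6 immediate early genes, and quantile normalization 3 partners. Above the median signal 3729 of 11026 genes were called. With that filter 11 of 27 inputs, 7 of 18 partners and 4 of 6 targets passed. Of the other lists, 7 of 17 immediate early genes and 10 of 28 other receptors passed. Signs turned for Cyp11a1 after median centring (-0.012), for Rxra after cyclic loess (-0.027), median centring (-0.043) and quantile normalization (-0.0082), for Hdac7 (-0.041) and Kcnj3 (-0.046) after median centring, and for Atg101 after cyclic loess (0.040) and quantile normalization (0.058). Without single arrays signs also turned, over ranges of -0.0033 to 0.059 for Cyp11a1, -0.015 to 0.037 for Rxra, -0.074 to 0.00089 for Rxrg, -0.049 to 0.097 for Hdac7, -0.086 to 0.017 for Atg101 and -0.070 to 0.048 for Kcnj3. With no array pairing stated in the labels, the replicate block gave 5300 calls and for Nr4a1 an adjusted p of 1.64e-05; deviations of same-numbered samples correlated at 0.113, 0.076 and 0.096, each sample best with its own number, a hint from the data and not the design. For these results the cause of a change was not tested, except that the signal filter tests fewer genes and a left-out array leaves fewer samples. Signal over background limits Nr4a2 and Nr4a3.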
